A study of Caenorhabditis elegans with 2 samples.

Results

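The Hox genes ceh-13, lin-39, mab-5, egl-5, nob-1 and php-3 and the Hox cofactor genes ceh-20, ceh-40, unc-62 and psa-3 were examined for binding of CEH-16 in Caenorhabditis elegans. These 10 genes were listed by name, with earlier results of these data known, and stand among 19973 nuclear protein-coding genes of the annotation. A peak was given to a gene when its summit, the base the authors marked as the peak's centre, lay in the gene body or up to 5000 bp upstream of the gene start.

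CEH-16 is the nematode Engrailed-class homeodomain factor, and it was mapped by chromatin immunoprecipitation and sequencing (ChIP-seq). The animals were L3 larvae of strain OP82, with genotype unc-119(tm4063) III; wgIs82, in which a transgene expresses CEH-16 with a GFP-FLAG tag at the C terminus. Whole worms of both sexes were pooled, and 2 biological replicates form the 1 group of the study, so there is no contrast between conditions and no test was made. All animals carry the transgene, and in whole larvae a site bound in few cells cannot be told apart from one bound weakly in many.

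Hox genes encode homeodomain transcription factors that give cells their identity along the head to tail axis. Hox proteins often bind DNA beside cofactors of the Pbx class and the Meis class, which are homeodomain proteins themselves. In the worm epidermis lin-39 acts in the mid-body and in the vulval precursor cells, mab-5 and egl-5 act in the posterior body and the male tail, and CEH-16 is known for its part in the lateral epidermal seam cells.

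The pooled, thresholded and 2 replicate peak lists were used, all on the ce11 assembly. The pooled list, called on both replicates together, held 30000 peaks with a median signal of 15.1 and a lowest signal of 11.5. Signal here means the number the authors assigned to a peak, on an unstated scale, and serves to describe and rank peaks within a list, with rank 1 the strongest. Where replicate signals are set side by side, each comes from its own list. The thresholded list held the 214 peaks that the authors passed by the irreproducible discovery rate, which were the 214 strongest pooled peaks, down to a signal of 43.6. The replicate 1 list held 19150 peaks with a median signal of 7.94, and the replicate 2 list held 30000 with a median of 10.8. The pooled and replicate lists include background peaks by design, and read depth is unknown.

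A pooled summit was found at 10 of the 10 genes, where 86.7% of all nuclear protein-coding genes had one. In the replicate 1 list 9 of the 10 genes had a summit, against 74.9% of all genes, and psa-3 was the gene without one. In the replicate 2 list 10 of the 10 genes had a summit, against 87.1% of all genes. Having a summit in these lists therefore sets the Hox and cofactor genes little apart from other genes. In the thresholded list 1 of the 10 genes, unc-62, had a summit, against 1.80% of all genes. The same gene was the 1 member with a summit among the 1000 strongest pooled peaks, against 7.70% of all genes. No Hox gene had a summit in either of these stronger sets.

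**Figure D1:**
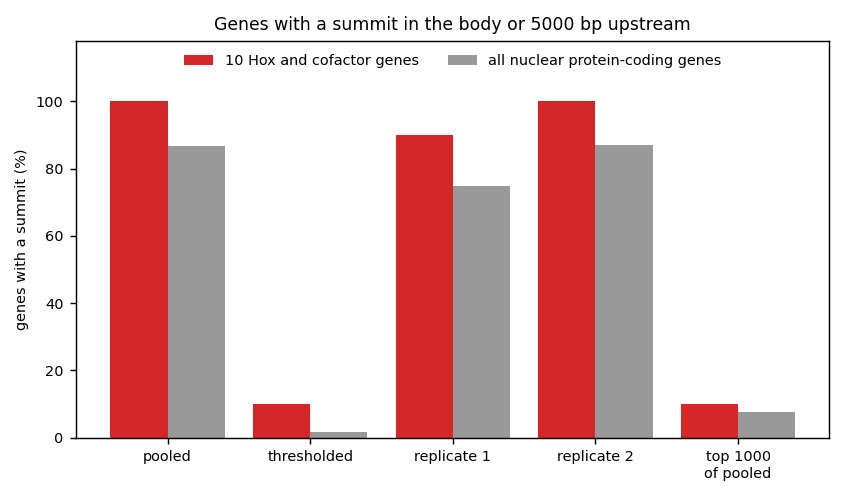
Share of genes (y axis, percent) with a summit in the gene body or 5000 bp upstream for each peak list (x axis), for the 10 Hox and cofactor genes beside all nuclear protein-coding genes. The bars are close for the pooled and replicate lists, and in the thresholded list 1 of 10 members stands beside 1.80% of all genes.

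The 10 genes together held 38 pooled summits, of which 17 lay at Hox genes and 21 at cofactor genes. The windows of the 10 genes cover 105 kb, which gives 36.3 pooled summits per 100 kb, against 29.9 per 100 kb over the nuclear genome. Without unc-62 the density at the members was 32.6 per 100 kb, and at the Hox genes it was 31.0 per 100 kb. The members had a median of 3 pooled summits per gene, against 2 over all genes, and a median window of 9.93 kb, against 7.03 kb. Of the 38 summits, 17 lay upstream of the gene, 17 in an intron and 4 in an annotated 5' UTR. Their median signal was 16.0, against 15.1 over all nuclear pooled peaks.

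**Figure D2:**
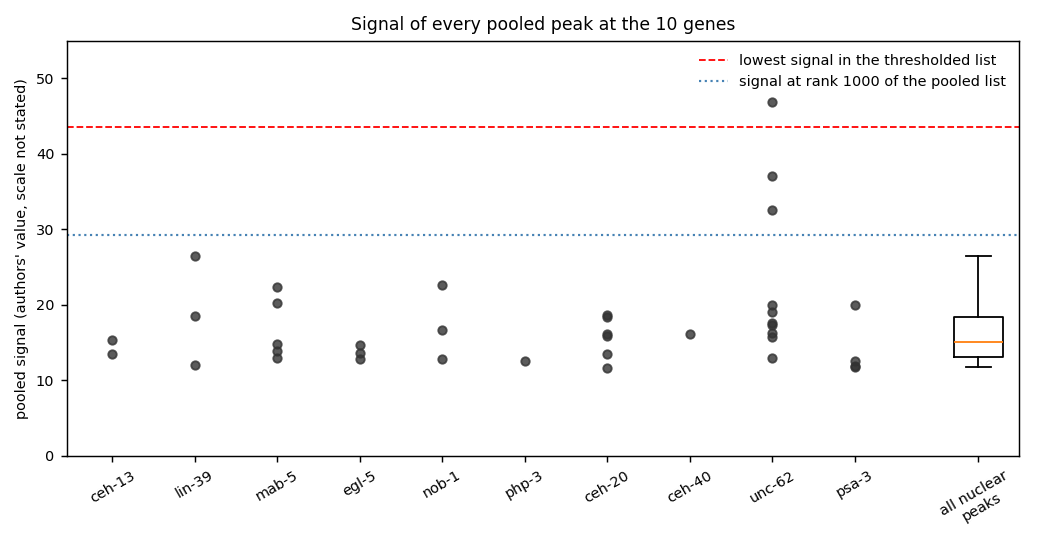
Pooled signal (y axis, the authors' value) of every pooled peak at each of the 10 genes (x axis), with all nuclear pooled peaks at the right. The dashed line is the lowest thresholded signal, 43.6, and the dotted line the signal at pooled rank 1000, 29.2; 3 unc-62 peaks lie above the dotted line and 1 of them above the dashed line.

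Among the Hox genes, lin-39 had the strongest pooled peak. The gene lies at chrIII:7528641-7536632 on the minus strand. The summit lay at 7534937 on chromosome III, in an intron, 1695 bp downstream of the gene start and 132 bp upstream of the start of the other annotated transcript. The signal was 26.4 at rank 1542 in the pooled list, 8.68 at rank 7166 in the replicate 1 list and 14.2 at rank 5655 in the replicate 2 list, with replicate summits 3 bp and 4 bp away. At rank 1542 the strongest Hox peak was in the upper part of the list but outside the 1000 strongest. A peak as strong or stronger was present at 11.2% of all genes. This share takes no account of window length, which was 12992 bp at lin-39 against a median of 7.03 kb over all genes. The 101 bases around this summit hold none of the words searched. Those around the strongest summits of mab-5, nob-1 and ceh-13 are given beside them, and all of these hold TAAT. The bases around the strongest php-3 summit, not printed, also hold none of the words, and those of egl-5 hold TTTAAA but no TAAT. Over all nuclear pooled summits, 66.4% had TAAT within 50 bp. Sequences are of the plus strand of ce11, and capitals mark matches to the words listed further on.

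lin-39 (chrIII:7534887-7534987, + strand): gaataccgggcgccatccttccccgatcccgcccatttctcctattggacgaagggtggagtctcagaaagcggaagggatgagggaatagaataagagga

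mab-5 (chrIII:7779631-7779731, + strand): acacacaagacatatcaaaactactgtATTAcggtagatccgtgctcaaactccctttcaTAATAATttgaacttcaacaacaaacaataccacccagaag

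nob-1 (chrIII:12088257-12088357, + strand): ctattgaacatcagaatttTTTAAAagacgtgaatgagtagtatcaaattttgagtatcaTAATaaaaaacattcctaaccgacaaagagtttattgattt

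ceh-13 (chrIII:7554844-7554944, + strand): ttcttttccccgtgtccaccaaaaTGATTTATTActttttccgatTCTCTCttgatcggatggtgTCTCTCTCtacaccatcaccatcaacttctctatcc

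The other pooled peaks of lin-39 lay upstream. The one 3539 bp upstream, at 7540171, had a signal of 18.5 at rank 7431 and a replicate 2 summit 6 bp away with a signal of 13.3 at rank 7330. The one 2817 bp upstream, at 7539449, had a signal of 12.0 at rank 27221 and a replicate 2 summit 25 bp away with a signal of 9.71 at rank 20199. Neither had a replicate 1 summit within 200 bp. Replicate 2 had 3 further summits at lin-39 that the pooled list did not match, at 7537946 with a signal of 11.2 and rank 13729, at 7528737 in the 3' UTR with 10.8 and rank 15072, and at 7531187 with 8.55 and rank 27199. Replicate 1 had 1 further summit, at 7530933, with a signal of 6.47 and rank 16908.

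The gene mab-5, at chrIII:7776835-7783454 on the minus strand, had 5 pooled summits, the most of any Hox gene. The strongest lay in its intron at 7779681, 3773 bp into the gene, with a pooled signal of 22.3 at rank 3336, a replicate 1 signal of 7.30 at rank 12292 and a replicate 2 signal of 17.6 at rank 2125. The second, 887 bp upstream at 7784341, had a pooled signal of 20.2 at rank 5176, a replicate 1 signal of 9.86 at rank 4558 and a replicate 2 signal of 11.3 at rank 13267. These were the 2 mab-5 peaks with a summit within 200 bp in both replicates. For the strongest one the replicate 2 summit, at 7779835, lay 154 bp away and is nearer to another mab-5 peak, at 7779923, from which it lay 88 bp. The start of bath-15, 3648 bp away, is nearer to the strongest peak than that of mab-5. The third peak, 3487 bp upstream at 7786941, had a pooled signal of 14.8 at rank 15872 and a replicate 2 signal of 12.9 at rank 8416.

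Of the weaker mab-5 peaks, the one at 7779923 had a pooled signal of 13.9 at rank 19032 and shares its replicate 2 summit with the strongest peak. The one at 7778802 had a pooled signal of 12.9 at rank 23042 and a replicate 1 signal of 11.3 at rank 2592, the best replicate 1 rank at any Hox gene. The start of bath-15 is nearer to this peak, at 2769 bp, than that of mab-5, at 4652 bp. The unmatched replicate summits of mab-5 lay at 7780875 in replicate 1 with a signal of 9.84 and rank 4610, at 7787450 in replicate 1 with 8.03 and rank 9255, and at 7786131 in replicate 2 with 8.69 and rank 26260.

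At ceh-13, the anterior Hox gene at chrIII:7555660-7558041 on the plus strand, the peak 766 bp upstream at 7554894 had a pooled signal of 15.3 at rank 14295, a replicate 1 signal of 10.5 at rank 3611 and a replicate 2 signal of 8.48 at rank 27607. It was one of the 8 member summits with a match in both replicates, a match being a summit within 200 bp, although its pooled signal was close to the median of the list. The other pooled peak, 423 bp into the gene at 7556083, had a signal of 13.5 at rank 20838 and no match in either replicate. One unmatched replicate 1 summit lay at 7552175 with a signal of 6.13 at rank 19116.

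At egl-5, a posterior Hox gene at chrIII:7814374-7817141 on the plus strand, all 3 pooled peaks were below the list median. The first, at 7814671 in an intron, 297 bp into the gene, had a pooled signal of 14.6 at rank 16710 and a replicate 2 signal of 8.94 at rank 24605. The second, at 7815842 in an intron, had 13.6 at rank 20204 pooled and 10.8 at rank 14960 in replicate 2, and the third, 2487 bp upstream at 7811887, had 12.8 at rank 23621 pooled and 10.4 at rank 16919 in replicate 2. The 1 replicate 1 summit of egl-5, at 7813339, had a signal of 7.19 at rank 12850 and matched no pooled summit.

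The posterior genes nob-1 and php-3 lie 236 bp apart on the minus strand of chromosome III, nob-1 at chrIII:12077793-12084316 and php-3 at chrIII:12074218-12077556. The strongest nob-1 peak, 3991 bp upstream at 12088307, had a pooled signal of 22.6 at rank 3145 and a replicate 2 signal of 15.7 at rank 3755, with no replicate 1 summit within 200 bp. The second, 3211 bp upstream at 12087527, had 16.6 at rank 11072 pooled and 7.74 at rank 10355 in replicate 1. The third, at 12089002, had 12.8 at rank 23798 pooled and 9.69 at rank 20316 in replicate 2. All 3 lay upstream. At php-3 the 1 pooled summit, at 12074971 in an intron, had a signal of 12.6 at rank 24675 and no match in either replicate, and a replicate 1 summit at 12074496 in the 3' UTR had 9.05 at rank 6192. The replicate 2 summits at 12078118, with a signal of 9.17 at rank 23242, and at 12080391, with 9.17 at rank 23250, were counted at both genes because they lie in nob-1 and upstream of php-3.

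**Figure D3:**
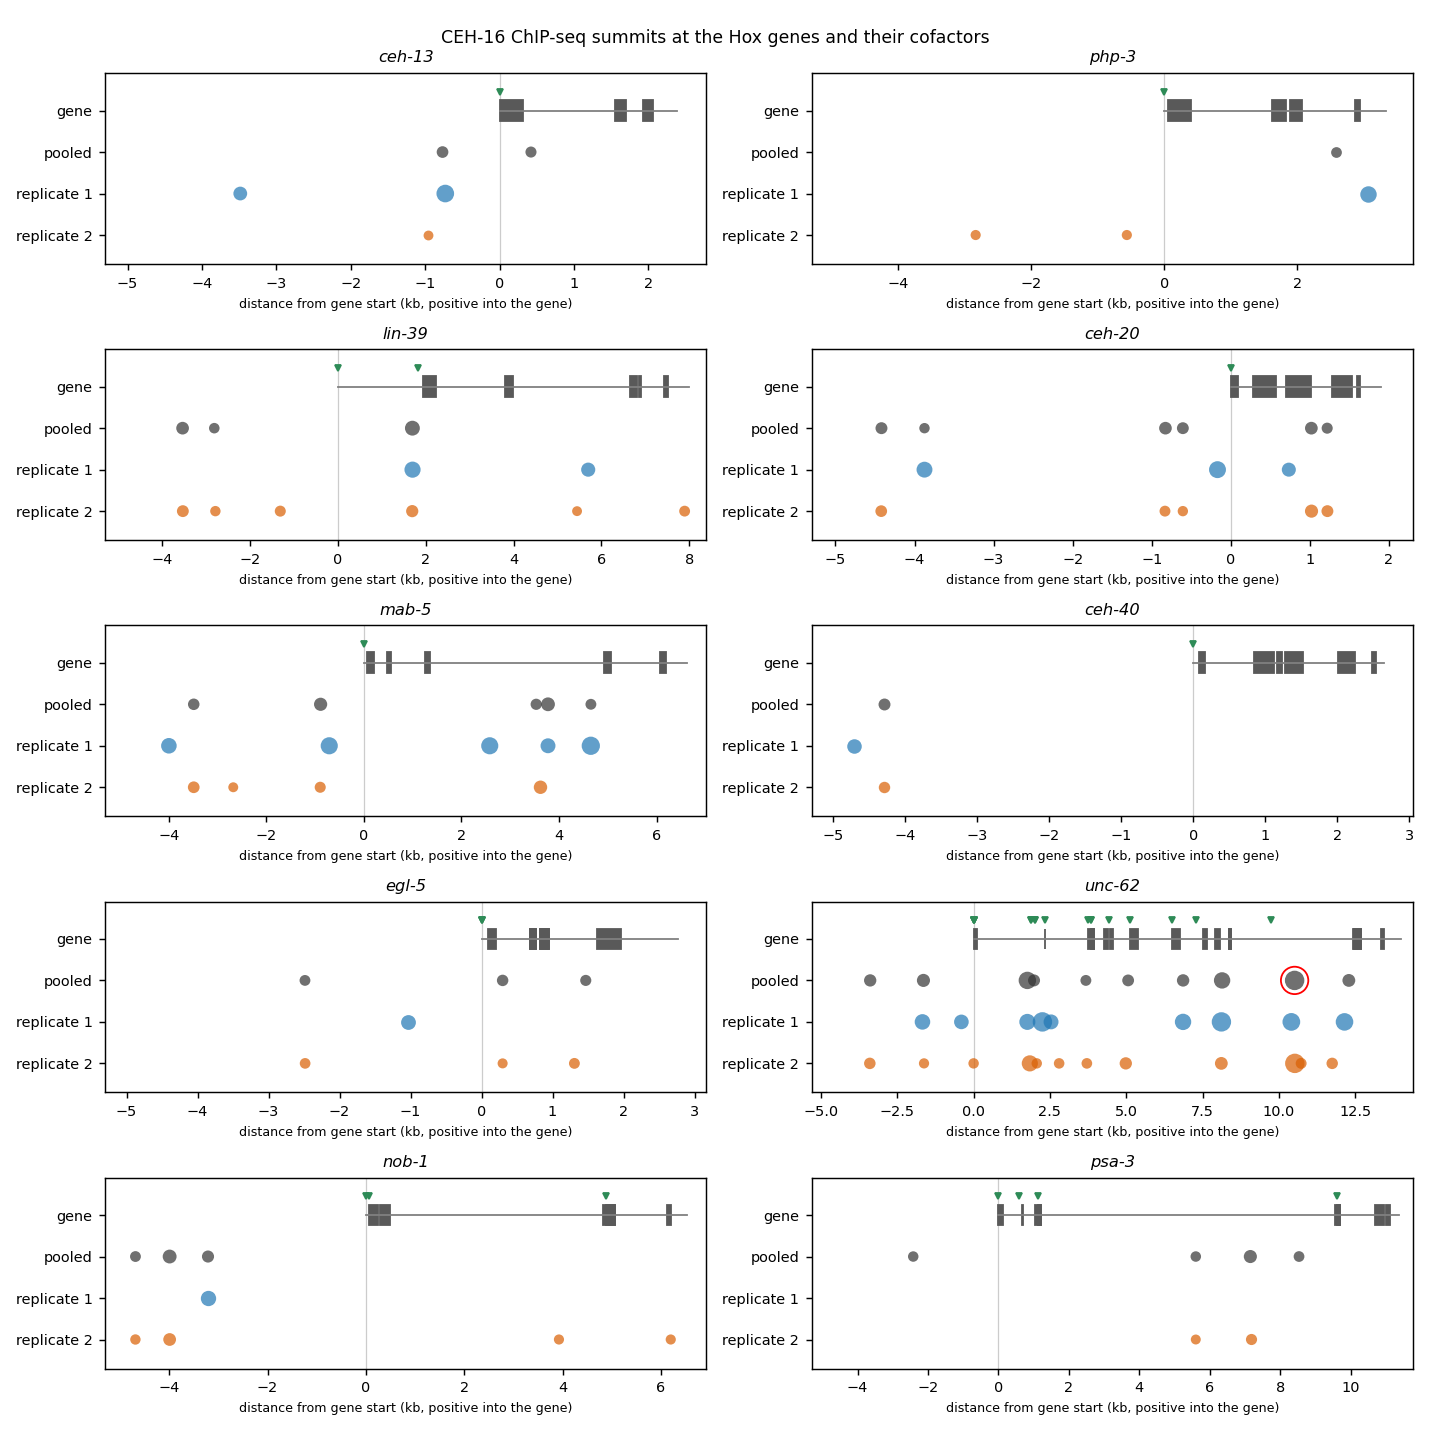
Maps of the 10 genes with distance from the gene start in kb on the x axis and the annotated gene, the pooled summits and the summits of each replicate in rows. Boxes are coding sequence, green triangles are transcript starts, and dots are summits, larger for stronger signals relative to the strongest member peak of the same list, with the thresholded peak ringed in red; the strongest pooled summits of unc-62 lie inside the gene, while all pooled summits of nob-1 lie upstream.

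Among the cofactors, unc-62, the worm Meis-class gene, stood above the other 9 genes. It lies at 4497461 to 4511449 on chromosome V on the plus strand and has 18 annotated transcripts with 15 distinct starts. It held 10 pooled summits, 9 replicate 1 summits and 12 replicate 2 summits, and its 3 strongest pooled peaks were the only peaks of the 10 genes within the 1000 strongest. Such a count of 3 or more was reached by 42 genes, or 0.210% of all nuclear protein-coding genes. That share was not counted among genes with a window as long as that of unc-62. At least 10 pooled summits were present at 211 genes, or 1.06%. The unc-62 window is long, and of the 494 genes with a window of at least the same length 137, or 27.7%, had at least 10 pooled summits, 17.8% had a summit among the 1000 strongest and 17, or 3.44%, had a thresholded summit.

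The thresholded peak of unc-62 spans chrV:4507801-4508150 and has its summit at 4507976, 10515 bp downstream of the gene start. The summit lies in a 5' UTR exon of 1 of the 18 transcripts that span it, is intronic in the others, and is 772 bp past the nearest transcript start. Its pooled signal was 46.9 at rank 172, which placed it 147th among the 189 nuclear thresholded peaks. The replicate 1 summit, 107 bp away, had a signal of 10.6 at rank 3407, and the replicate 2 summit, 7 bp away, had a signal of 39.3 at rank 78. The replicates thus placed this peak very differently: among nuclear thresholded peaks 6 had a worse rank in replicate 1, while 137 had a worse rank in replicate 2. The ratio of replicate 2 signal to replicate 1 signal was 3.71, against a median of 1.44 over the 188 nuclear thresholded peaks matched in both replicates, of which 6 had a ratio at least as high. Over all nuclear pooled peaks matched in both replicates the median ratio was 1.37, and 0.5% had a ratio of 3.71 or more. The replicate signals are the authors' values from lists called separately, so a ratio between them has no absolute meaning and is read only against the ratios of other peaks, and the cause of the difference was not tested.

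The second unc-62 peak had its summit at 4499223 in an intron, 104 bp upstream of an alternative transcript start, with a pooled signal of 37.1 at rank 386, a replicate 1 signal of 8.58 at rank 7508 and a replicate 2 signal of 26.5 at rank 298. The ratio of replicate 2 signal to replicate 1 signal was 3.09 at this peak, and 1.74% of all nuclear peaks matched in both replicates had a ratio at least as high. The third had its summit at 4505601, in a 5' UTR exon of 2 of the 17 transcripts that span it, with a pooled signal of 32.5 at rank 618, a replicate 1 signal of 12.8 at rank 1561 and a replicate 2 signal of 15.8 at rank 3622. Of the 3 peaks, the third had the better rank in replicate 1 and the other two had the better rank in replicate 2. The sequences at the 3 summits are shown because these are the strongest peaks of the 10 genes, with 30 bases where the summit is annotated as UTR.

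unc-62 summit of rank 172 (chrV:4507962-4507991, + strand): gagattgGAGAGAgttggctggcaGAGAGA

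unc-62 summit of rank 386 (chrV:4499173-4499273, + strand): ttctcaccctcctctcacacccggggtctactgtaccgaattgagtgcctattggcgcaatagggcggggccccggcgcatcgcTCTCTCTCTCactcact

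unc-62 summit of rank 618 (chrV:4505587-4505616, + strand): TGATTCATttctcacctttcttcctcactt

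The other 7 pooled peaks of unc-62 had signals from 13 to 19.9. The peak 1641 bp upstream, at 4495820, had 19.9 at rank 5561 pooled, 7.98 at rank 9405 in replicate 1 and 9.34 at rank 22238 in replicate 2, and was the fourth unc-62 peak matched in both. Peaks at 4509752, with 19.0 at rank 6656, and at 4504324, with 17.6 at rank 8959, matched replicate 1 summits with signals of 10.4 at rank 3739 and 8.94 at rank 6496. The remaining 4 matched replicate 2 summits only.

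These were the peak 3385 bp upstream at 4494076, with 17.3 at rank 9545 pooled and 12.4 at rank 9642 in replicate 2, and the peak at 4499442, with 16.3 at rank 11790 pooled and 9.72 at rank 20129 in replicate 2. The peak at 4502524 had 15.7 at rank 13227 pooled and 14.5 at rank 5262 in replicate 2, and that at 4501140 had 13 at rank 22914 pooled and 10.3 at rank 17107 in replicate 2. Of the 10 pooled summits, 8 lay in the gene body and 4 within 200 bp of one of its transcript starts.

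Replicate summits of unc-62 with no pooled summit within 200 bp numbered 3 in replicate 1 and 4 in replicate 2. In replicate 1 they lay at 4499717, with a signal of 12.9 at rank 1498, at 4499999, with 7.31 at rank 12245, and at 4497063, with 7 at rank 13892. In replicate 2 they lay at 4509207, with 12.2 at rank 10186, at 4508190, with 10.9 at rank 14632, at 4500264, with 10.1 at rank 18133, and at 4497463, 2 bp from the gene start, with 9.82 at rank 19642. The replicate 1 summit at 4499717 was the strongest of that replicate at any of the 10 genes.

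The Pbx-class gene ceh-20, at chrIII:6979884-6981785 on the plus strand, had 6 pooled summits in a window of 6902 bp, or 8.69 per 10 kb, the highest density among the 10 genes. Its strongest peak, at 6980902 in an intron, had a pooled signal of 18.6 at rank 7231 and a replicate 2 signal of 16.8 at rank 2716. The peak 827 bp upstream at 6979057 had 18.4 at rank 7585 pooled and 10.9 at rank 14821 in replicate 2. The peak 607 bp upstream at 6979277 had 15.9 at rank 12829 pooled and 9.61 at rank 20769 in replicate 2. No ceh-20 summit was matched in both replicates. The density counts overlapping peaks, since the intervals of the peaks at 6979057 and 6979277 overlap, as do those at 6980902 and 6981102. Some peak intervals at mab-5 and unc-62 overlap as well.

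Of the remaining ceh-20 peaks, 2 lie in the body of the neighbouring gene F31E3.2. The one at 6975466 had a pooled signal of 16.1 at rank 12117 and a replicate 2 signal of 12.9 at rank 8243, and the one at 6976010 had 11.6 at rank 29793 pooled and 8.38 at rank 8098 in replicate 1. The last, at 6981102 in an intron, had 13.5 at rank 20641 pooled and 13.4 at rank 7173 in replicate 2. Unmatched replicate 1 summits lay 169 bp upstream at 6979715, with a signal of 9.61 at rank 5005, and at 6980617 in coding sequence, with 6.38 at rank 17446. The sequence at the strongest ceh-20 summit follows, and holds ATTA, the reverse complement of TAAT, in 2 places.

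ceh-20 (chrIII:6980852-6980952, + strand): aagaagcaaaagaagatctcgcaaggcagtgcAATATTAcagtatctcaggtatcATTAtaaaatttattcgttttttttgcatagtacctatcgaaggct

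The second Pbx-class gene, ceh-40, at chrX:12318126-12320777 on the minus strand, had 1 pooled summit, at 12325068 on chromosome X, 4291 bp upstream of ceh-40 and inside the gene srd-40. It had a pooled signal of 16.1 at rank 12337 and a replicate 2 signal of 12.2 at rank 10306, and a replicate 1 summit at 12325489 had 6.90 at rank 14366. The peak is nearer to the start of srd-40 than to that of ceh-40.

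The Meis-related gene psa-3, at chrX:15407931-15419298 on the plus strand, had 4 pooled summits and no replicate 1 summit. The strongest, at 15415084 on chromosome X, lies in an intron of psa-3 and also in the gene pqn-36, with a pooled signal of 19.9 at rank 5462 and a replicate 2 signal of 11.5 at rank 12380. The one at 15413535 also lies in pqn-36, with 11.9 at rank 28016 pooled and 8.74 at rank 25946 in replicate 2. The peaks at 15416466, with 12.6 at rank 24809, and 2418 bp upstream at 15405513, with 11.8 at rank 28713, had no match in either replicate. The 2 peaks inside pqn-36 cannot be assigned to either gene by position.

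Across the 10 genes, the strongest pooled peak of each gene had a median signal of 19.3, against 18.1 over the 17315 genes with a pooled summit. The order ran from unc-62 at 46.9 through lin-39, nob-1, mab-5, psa-3, ceh-20, ceh-40, ceh-13 and egl-5 to php-3 at 12.6. A peak as strong or stronger was present at 1.41% of all genes for unc-62 and at 81.6% for php-3, and for nob-1 and mab-5 the shares were 20.8% and 21.7%. These medians and shares take no account of window length, and a longer window leaves more room for a strong peak. The order is one of single peaks with no replicate spread in the pooled list. The nearest protein-coding gene start belonged to the member for 26 of the 38 summits, and 5 of the 38 lay in the body of another protein-coding gene. Summits within 200 bp of a protein-coding transcript start were 7 of 38, or 18.4%, against 12.6% of all nuclear pooled summits. Of the 7, 4 were at unc-62 with its 15 distinct transcript starts, and the other 9 genes had 3 of 28, or 10.7%.

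Agreement between replicates was measured by summits within 200 bp. Of the 38 pooled summits, 8, or 21.1%, had a summit in both replicate lists, against 19.3% of all nuclear pooled summits. The 8 belong to unc-62 with 4, mab-5 with 2, lin-39 and ceh-13, and one of the mab-5 matches uses a replicate 2 summit that lies nearer to another pooled summit. A further 21 had a replicate 2 summit only, 5 a replicate 1 summit only, and 4, or 10.5%, had neither, against 15% of all nuclear pooled summits. Replicate 1 matched 34.2% of the member summits, against 36.9% over all, and replicate 2 matched 76.3%, against 67.4%. The replicate 1 list is shorter, and the pooled list contains the reads of both replicates, so these matches are not independent of it.

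**Figure D4:**
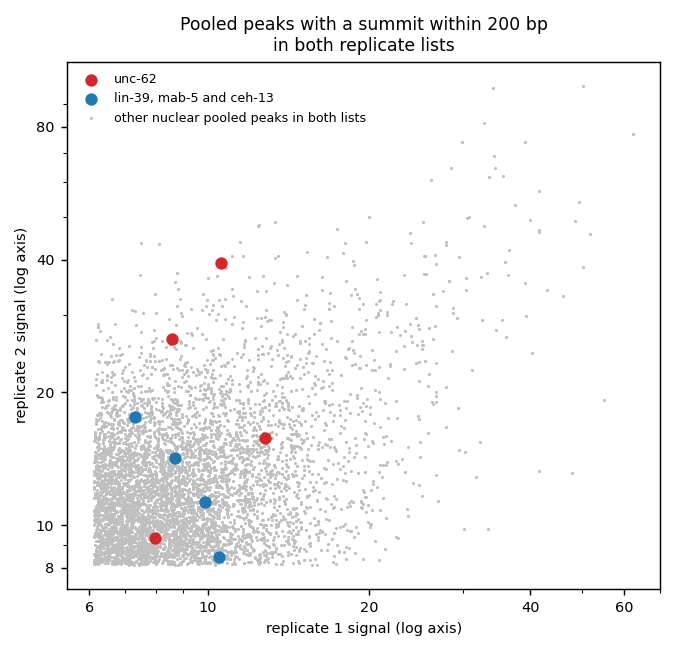
Replicate 1 signal (x axis, log scale) and replicate 2 signal (y axis, log scale) of the pooled peaks with a summit within 200 bp in both lists, for unc-62, for lin-39, mab-5 and ceh-13, and for all other nuclear peaks. The thresholded unc-62 peak, at 10.6 and 39.3, and the second unc-62 peak, at 8.58 and 26.5, lie high for their replicate 1 signals, as do some other nuclear peaks.

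Short words were searched on both strands within 50 bp of each summit: TAATTA and its core TAAT for homeodomain proteins, TGATNNAT for Pbx with Hox, TGACAG for Meis, GAGAGA and CGCGCA as further words, and AATATT and TTTAAA as AT-rich controls. TAAT is part of TAATTA, and repeats of GAGAGA overlap one another. TAATTA was found at 1 of 38 summits, or 2.63%, the mab-5 peak 887 bp upstream, against 5.24% of all nuclear pooled summits, and TAAT at 24, or 63.2%, against 66.4%. TGATNNAT was found at 5, or 13.2%, against 7.79%, TGACAG at 3, or 7.89%, against 3.23%, and GAGAGA at 5, or 13.2%, against 6.73%. The TGATNNAT hits were the unc-62 summits of ranks 172, 618 and 5561, ceh-20 at rank 12117 and ceh-13 at rank 14295. The GAGAGA hits were the unc-62 summits of ranks 172, 386 and 11790, ceh-13 at rank 14295 and psa-3 at rank 28713. The TGACAG hits were nob-1 at ranks 11072 and 23798 and ceh-20 at rank 12829. Most hits of TGATNNAT and of GAGAGA thus lay at unc-62, while no hit of TGACAG did. CGCGCA was found at none, against 1.75%, AATATT at 4, or 10.5%, against 12.2%, and TTTAAA at 7, or 18.4%, against 17.6%. The direction of some differences turned with the window. Within 25 bp TGATNNAT was found at 1 of 38, or 2.63%, against 3.70%, and within 100 bp TAAT was found at 36 of 38, or 94.7%, against 87.3%. These counts are small and describe letters in the window only.

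Within 200 bp of the summit, GC content averaged 37.3% ± 6.68 over the member summits (SD, n = 38 summits), against 34.7% ± 5.12 over all nuclear pooled summits (SD, n = 29975 summits). The 10 unc-62 summits had a mean GC content of 44.5% and ran from 34.9% to 53.6%, all above the mean of all nuclear summits, while the 28 summits of the other 9 genes had a mean of 34.7%, equal to it at this precision. The 3 strongest unc-62 summits had 48.4%, 52.6% and 44.1%, and the 189 nuclear thresholded summits had a mean of 39.8%. The strongest nob-1 summit, at 24.9%, had the lowest GC content of the 38. GC content was thus higher at unc-62 at weak as well as strong peaks, with 42.1% at its weakest peak, of rank 22914. The 53.6% was at its peak of rank 11790, whose sequence window overlaps that of the peak of rank 386. The part of GC content in the signal was not tested.

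**Figure D5:**
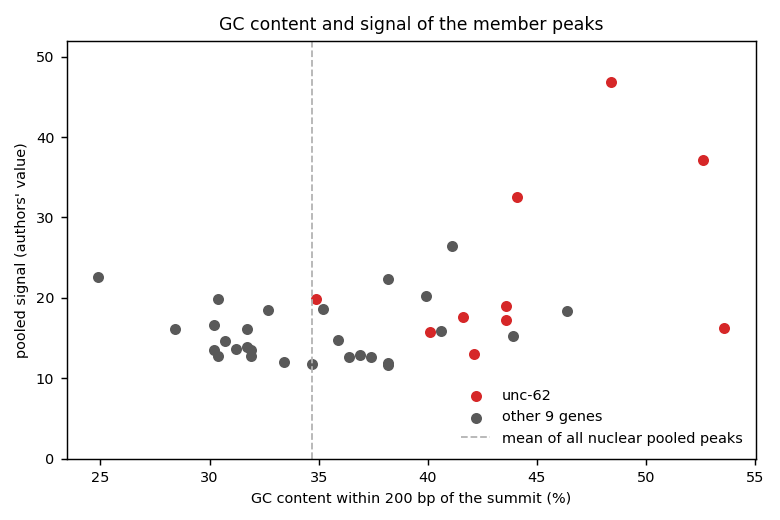
GC content within 200 bp of the summit (x axis, percent) and pooled signal (y axis, the authors' value) for the 38 member summits, with the mean GC content of all nuclear pooled summits as a dashed line. The 10 unc-62 summits lie at or to the right of the line, from 34.9% to 53.6%, and the other genes' summits lie on both sides of it.

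A list of 21 further genes of the Hox pathway, also chosen with earlier results known, was described in the same way. It held the third Pbx gene ceh-60, 12 regulators of Hox expression and 8 other genes linked to Hox function. A pooled summit was present at 20 of the 21, against 86.7% of all genes, a replicate 1 summit at 19, against 74.9%, and a replicate 2 summit at 20, against 87.1%. A thresholded summit was present at 1, against 1.80% of all genes. This was sor-3, with a signal of 51.6 at rank 130. A summit among the 1000 strongest was present at 5 of the 21, against 7.70% of all genes. The windows of the 21 genes ran from 7.19 kb to 20.5 kb with a median of 9.49 kb, against a median of 7.03 kb over all genes, and of the 9239 genes with a window of 7.19 kb or more 9.35% had a summit among the 1000 strongest. Nothing is read from the count about the list. Besides sor-3 these were lin-22, a Hairy-related factor, with 35.1 at rank 469, lin-59 with 32.7 at rank 594, egl-27 with 29.8 at rank 920, and egl-17, which encodes a fibroblast growth factor, with 29.4 at rank 977. In the group of 8 other genes, mig-13 had no pooled summit, and eff-1, which encodes a cell fusion protein, had 17.5 at rank 9050. The strongest ceh-60 peak had 18.2 at rank 7832, close to that of ceh-20 and above that of ceh-40.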

How the data were processed

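CEH-16 ChIP-seq peak lists of 2 biological replicates in 1 group were used. The authors called peaks and background on each replicate and on both together, and passed a thresholded list by the irreproducible discovery rate, per the text the authors deposited beside the lists, which also names a control that was not analysed here. Neither aligner nor peak caller is named in the sources used here. The signal per peak is the authors' deposited value on an unstated scale. The q column of the deposited lists is below 0 for many peaks and was read as a score only, not used for any result. No read counts are given, so depth is unknown.

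Summits on ce11 were compared with Ensembl release 115 genes, and sequence was read from the WBcel235 genome, credited to RefSeq. Scripts ran in Python 3.11.15 with numpy 2.4.6, pandas 2.3.3 and matplotlib 3.10.9, and were tested on simulated data. Windows were the gene body plus 5000 bp upstream, matching distance was 200 bp and motif words were searched within 50 bp. No statistical test was made, since there is 1 group; counts are set beside the same counts over all genes or peaks. Members, word list and pathway list were chosen with earlier results of these data known. All 10 members are described, with other genes named only where a member peak lies in or beside them or where the pathway list holds them.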

Additional observations from a re-analysis of the deposited data

How the results depend on the processing

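Of 36 alternative settings over 8 results, 27 left a count within 1.5 times its reported value, or the signal within 1% of it. The other 9 moved it further. Member counts of 9 or 10 had little room to move, since 74.9% to 87.1% of all genes had a summit in those lists. For the pooled counts, leaving out a replicate meant using the other replicate's list. The 27 is thus no measure of stability. The count of members with a thresholded summit was 1. It was 2 with 10000 bp upstream, where ceh-20 was added. The share of all genes at that distance was not counted, so nothing is read from the 2. The count was 0 with each summit given to the nearest gene start, since T28F12.1 is nearer to the unc-62 summit. It was also 0 in the stronger 50% of the list, which by construction drops rank 172. To leave out a replicate, the thresholded list was replaced by the top 214 peaks of the replicate that stayed, and the count ranged from 0 to 1, being 0 without replicate 2. This follows from the ranks of the unc-62 peak, 3407 in replicate 1 and 78 in replicate 2, and is no rerun of the authors' threshold, which used both replicates. The 38 pooled summits became 22 in the stronger 50% of the list, by construction, and 25 to 38 with a replicate left out, 25 being the shorter replicate 1 list. The count of 8 summits matched in both replicates was 3 within 50 bp (7.89% of member summits, against 7.83% of all nuclear summits) and 14 within 500 bp (36.8%, against 27.3%). TAATTA was found at 0 member summits within 25 bp, against 1 within 50 bp. For ce10 the peak on the same chromosome with the closest signal was looked up, without its position, and it had 46.9. This setting could hardly move, so it is no check of the strongest peak. No paired analysis was possible because there is only 1 group and no test. Depth is unknown, and 2 replicates give no spread for a pooled signal.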

Other observations

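Pooled summits were also counted between Hox genes on chromosome III. The 19.0 kb between lin-39 and ceh-13 held 7, the strongest at 7543288 with rank 5407 and a replicate 2 summit at 7543287 with 17.9 at rank 1996, the best replicate 2 rank in the interval. The 30.9 kb between mab-5 and egl-5 also held 7, the strongest at 7793056 with a signal of 20.9 at rank 4451. Neither interval held a thresholded summit. Over the nuclear genome there were 29.9 pooled and 0.188 thresholded summits per 100 kb. The interval counts include summits also given to the genes' upstream windows, and nothing is read from them.

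With 10000 bp upstream, ceh-20 had a thresholded peak at chrIII:6971878-6972227, with its summit at 6972053, 7831 bp upstream of the gene. Its signal was 62.1 at rank 83, with rank 79 in replicate 1 and rank 188 in replicate 2. The summit lies in cel-mir-5549 and 200 bp from the start of rfc-4.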
